A study of Rattus norvegicus with 4 samples.

Results

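The comparison set the cells of barcode sets 1 and 2 against those of barcode sets 3 and 4 in dissociated rat hippocampus, inside 4 cell types: microglia, endothelial cells, oligodendrocytes and T cells. A barcode set is all cells whose barcode ends in the same suffix in the pooled count matrix, and each set is 1 droplet library. A cell was kept when it had 500 or more UMIs (unique molecular identifiers, which count captured transcripts), 300 or more genes, and a share of mitochondrially encoded UMIs no higher than 20%. Microglia had to hold at least 5 UMIs of C1qa, C1qb and C1qc together, endothelial cells at least 3 of Cldn5 and 1 of Flt1, oligodendrocytes at least 8 of Mag, Mog, Mobp and Ermn, and T cells at least 2 of Cd3d, Cd3e and Cd3g. These rules took 25575 of the 28879 kept cells, out of 31638 barcodes in all, with 13271 in sets 1 and 2 and 12304 in sets 3 and 4.

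The animals were wild type male adult Sprague Dawley rats, a common outbred laboratory strain. The 4 titled samples are NC (a negative control), MCAO, DEPR and MD. MCAO stands for blocking of the middle cerebral artery by a filament, a model of ischaemic stroke, and DEPR and MD share a description that names chronic stress alone. The design text instead describes 20 rats in 2 groups of 10, all with MCAO and 1 group then stressed, with 5 hippocampi of each group sequenced. Nothing in the labels or files used here ties a barcode set to a titled sample, so it is not known which treatment any set received, or whether sets 1 and 2 shared one. Levels are therefore given for each set on its own, and no test between the sides was made. Log2 ratios, of gene lists, of all genes and in the figures, rest on the median of a gene's 4 cross-set ratios. An interval printed with a ratio covers counting error only, and the 4 types of a set come from 1 library, so that they are not independent observations of it.

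Microglia are the resident macrophages of the brain, endothelial cells line its vessels and form the blood-brain barrier, oligodendrocytes make myelin, and T cells are lymphocytes that are few in healthy brain tissue. Several gene programmes recur in what follows. Interferons bind receptors on nearly every cell type and switch on a shared set of antiviral and antigen presentation genes through STAT and IRF factors. Glucocorticoids, the hormones of the adrenal stress axis, act through a nuclear receptor that induces genes such as Fkbp5, Sgk1 and Zbtb16. Heat shock factor 1 induces chaperone genes when proteins misfold, and enzymatic dissociation of tissue is also known to induce them.

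The promoters of 3 genes that were higher in sets 1 and 2 in all 4 types, and of 2 chaperone genes that were lower in 3 types, show the elements these programmes are known to use. The sequences are RefSeq's, on build GRCr8, matched by gene symbol, and run 5′ to 3′ on the gene's strand over the 250 bases before its start. They were chr1:205800024-205800273 (minus strand) for Irf7, chr12:41330216-41330465 (plus strand) for Oas1a, chr20:2675278-2675527 (plus strand) for RT1-S3, chr12:10427118-10427367 (plus strand) for Hsph1 and chr9:64084077-64084326 (plus strand) for Hspe1. Capitals mark, in the first 3, the core of the interferon-stimulated response element (GAAA, any 2 bases and GAAA, or TTTC, any 2 bases and TTTC when read on the other strand) and, in the last pair, the heat shock element (GAA, TTC and GAA, or TTC, GAA and TTC, with any 2 bases between neighbours), where neighbouring matches may overlap.
Irf7: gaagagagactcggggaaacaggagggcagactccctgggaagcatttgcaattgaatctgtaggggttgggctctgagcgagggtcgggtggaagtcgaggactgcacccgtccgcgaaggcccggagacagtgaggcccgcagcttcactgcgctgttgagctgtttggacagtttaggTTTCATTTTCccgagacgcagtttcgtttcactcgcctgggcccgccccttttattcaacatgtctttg
Oas1a: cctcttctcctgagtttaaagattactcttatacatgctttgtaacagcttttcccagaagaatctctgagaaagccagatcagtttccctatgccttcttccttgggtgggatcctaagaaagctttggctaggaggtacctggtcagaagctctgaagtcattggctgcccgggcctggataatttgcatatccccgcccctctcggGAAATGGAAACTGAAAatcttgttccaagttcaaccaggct
RT1-S3: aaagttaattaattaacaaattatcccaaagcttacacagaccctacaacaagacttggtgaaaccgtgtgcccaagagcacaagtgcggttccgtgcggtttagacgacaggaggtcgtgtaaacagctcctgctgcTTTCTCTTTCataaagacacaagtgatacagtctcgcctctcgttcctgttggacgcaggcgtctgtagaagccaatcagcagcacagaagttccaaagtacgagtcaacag
Hsph1: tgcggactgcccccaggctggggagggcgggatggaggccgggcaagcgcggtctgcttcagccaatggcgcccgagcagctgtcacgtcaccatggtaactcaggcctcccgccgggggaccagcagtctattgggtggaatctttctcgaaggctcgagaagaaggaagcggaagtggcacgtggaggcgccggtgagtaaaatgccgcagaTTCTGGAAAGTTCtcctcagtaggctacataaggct
Hspe1: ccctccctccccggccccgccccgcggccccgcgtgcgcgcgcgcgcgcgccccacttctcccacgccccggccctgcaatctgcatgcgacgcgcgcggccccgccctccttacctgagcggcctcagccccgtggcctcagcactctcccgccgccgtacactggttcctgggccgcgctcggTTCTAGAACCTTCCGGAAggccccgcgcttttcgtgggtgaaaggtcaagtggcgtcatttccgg
The interferon element was found in 3.41% of all 33469 promoter windows of this length and in 11 of the 16 windows found for the 23 genes of the interferon list. The heat shock element was found in 0.663% of all windows and in 4 of the 10 found for the 13 genes of the heat shock list. The windows of Hspe1 and Hspd1 overlap on opposite strands, so that the same stretch of bases is counted for both. The 2 chaperone windows shown are among those with a match. The windows of Bag3, Dnajb1 and Hspb1, which were also lower and are described below, held 0 matches of the heat shock element. A match describes the letters and is not a measured binding site. Of the 8 genes shifted one way in all 4 types, 5 had a window in the table, and those of Fkbp5 and Hbb held 0 matches of either element.

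Cells that met 2 or more rules (1360) were left out of all sums, which left 24215 cells. Microglia numbered 3002, 4358, 1878 and 3591 in sets 1 to 4, endothelial cells 1059, 384, 629 and 1013, oligodendrocytes 1182, 2164, 1829 and 2299, and T cells 145, 152, 182 and 348. Median UMIs per cell lay between 3137 (T cells of set 2) and 6577.5 (microglia of set 3), and microglia of sets 3 and 4 were deeper than those of sets 1 and 2. The 4 names fitted their markers: summed microglial markers stood at 6486 to 10213 CPM (UMI counts scaled to a total of 1000000) in microglia and at most 263 CPM in the other types, although Siglech was at 0 UMIs in the microglia of all sets. Endothelial markers stood at 6912 to 9082 CPM in endothelial cells and at most 180 CPM elsewhere, and oligodendrocyte markers at 36001 to 45024 CPM in oligodendrocytes and at most 634 CPM elsewhere. T cell markers stood at 1787 to 2516 CPM in T cells and at most 109 CPM elsewhere. Haemoglobin differed between the sides: summed red cell markers in endothelial cells were 71662, 110624, 7633 and 10762 CPM in sets 1 to 4, and cells with over 1% haemoglobin UMIs made up 20.4%, 26.6%, 5.09% and 5.13% of them. Summed neuron markers in endothelial cells were 915, 804, 494 and 308 CPM in sets 1 to 4, and so also differed between the sides. Neutrophil markers there were 21.3, 608, 5.47 and 8.94 CPM, and the part of either in the endothelial shifts was not tested. Between 9 and 27 barcode sequences were shared by any 2 sets.

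A gene was said to have shifted in a type when it had at least 50 UMIs there, both of sets 1 and 2 lay on the same side of both of sets 3 and 4, and the closest pair of sets across the divide differed by at least 1.5-fold with a 95% counting interval that left out 1. That smallest of the 4 cross ratios is called the nearest ratio below, and a level is always CPM in the summed cells of 1 type and set. In microglia 611 genes were higher in sets 1 and 2 and 934 lower, which is 5.41% and 8.27% of 11297 measured genes. In endothelial cells 243 were higher and 1615 lower (2.44% and 16.2% of 9951), in oligodendrocytes 251 and 365 (2.38% and 3.46% of 10538) and in T cells 276 and 48 (4.84% and 0.842% of 5704). Either way, 13.7% of genes shifted in microglia, 18.7% in endothelial cells, 5.85% in oligodendrocytes and 5.68% in T cells. The balance of higher and lower depended on scaling. With TMM factors, which centre the bulk of genes, the counts were 768 and 671 in microglia, 514 and 310 in endothelial cells, 298 and 264 in oligodendrocytes and 112 and 126 in T cells. The median log2 ratio of all measured genes moved from -0.15 to -0.02 in microglia, from -0.48 to -0.04 in endothelial cells, from -0.09 to -0.01 in oligodendrocytes and from 0.24 to -0.06 in T cells. Without cells over 1% haemoglobin the endothelial counts were 256 higher and 457 lower. The medians of gene lists are therefore given below as differences from the median of all genes of the type.

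**Figure D1:**
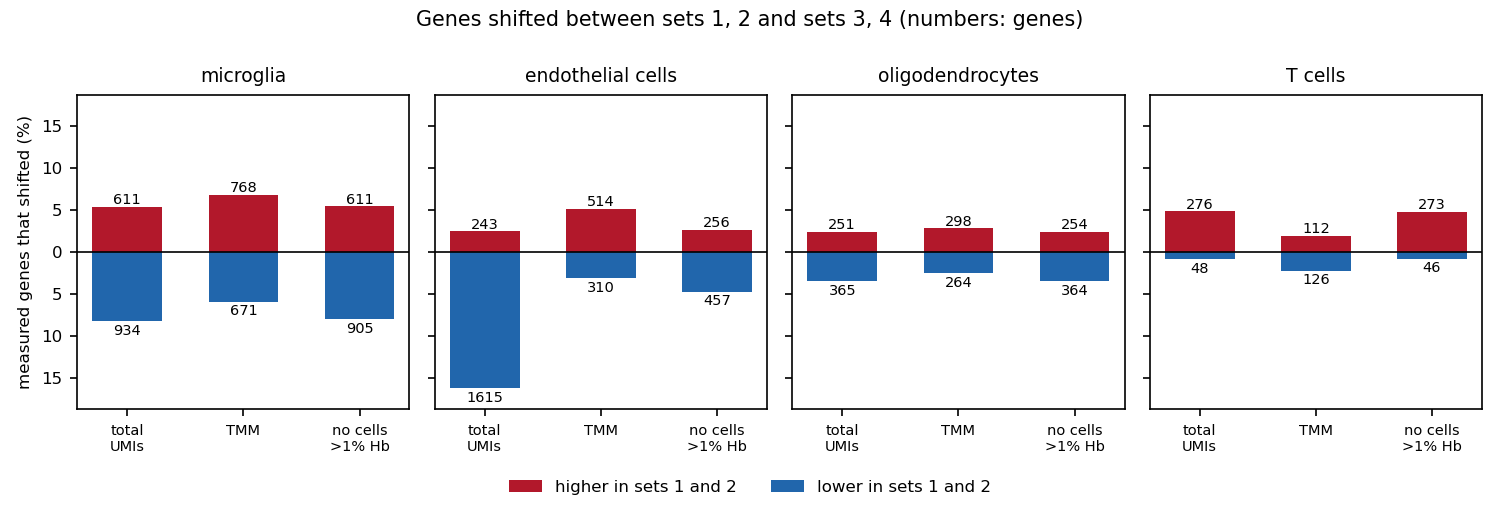
Share of measured genes (vertical axis, percent) that shifted in each cell type, higher in sets 1 and 2 above the zero line and lower below it, under 3 treatments of the counts, with the number of genes at each bar. The 1615 lower genes of endothelial cells fall to 310 with TMM scaling, and T cells go from 276 higher and 48 lower to 112 and 126.

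Of 5185 genes measured in all 4 types, 7 were higher in sets 1 and 2 in all 4 (0.135%) and 1 was lower in all 4 (0.0193%). The 7 were Fkbp5, the interferon genes Isg15, Irf7 and Oas1a, the MHC class I gene RT1-S3, and 2 genes of blood cells, Hbb and Alox15, while the lower gene was Mrpl43, which encodes a protein of the mitochondrial ribosome. A looser condition, that the sets of the 2 sides did not overlap in any of the 4 types, held for 63 genes in the higher direction (1.22%) and for 173 in the lower (3.34%).

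Fkbp5 encodes a chaperone partner of the glucocorticoid receptor that the receptor itself induces. Its level in microglia was 105, 116, 16.3 and 19.4 CPM in sets 1 to 4, a nearest ratio of 5.42 (95% counting interval 4.85 to 6.08). In oligodendrocytes it was 78.7, 81.2, 14 and 13.6 CPM, a ratio of 5.63 (95% counting interval 4.75 to 6.71). The 2 sets of a side differed by little, and the gap between the sides was about as wide in these 2 types. T cells held 94.9, 118, 29.5 and 28.2 CPM, a ratio of 3.21 (95% counting interval 2.05 to 5.17), and endothelial cells, where the gene was rare, 6.67, 6.95, 2.61 and 3.25 CPM, a ratio of 2.05 (95% counting interval 1.23 to 3.57). Fkbp5 also shifted in all 4 types with TMM scaling and without the cells over 1% haemoglobin.

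Isg15, a ubiquitin-like protein that interferon induces, was highest in T cells and endothelial cells. T cells held 269, 209, 40.1 and 43.4 CPM in sets 1 to 4 (nearest ratio 4.82, 95% counting interval 3.61 to 6.46) and endothelial cells 199, 179, 97.5 and 98.9 CPM (ratio 1.81, 95% counting interval 1.61 to 2.04). Microglia held 39.1, 27.5, 8.11 and 8.54 CPM (ratio 3.22, 95% counting interval 2.71 to 3.84) and oligodendrocytes 4.57, 6.09, 0.635 and 0.657 CPM (ratio 6.96, 95% counting interval 3.35 to 15.8). Thus oligodendrocytes had the lowest level and the widest gap, and no set crossed the divide in any type. Like Fkbp5, Isg15 shifted in all 4 types with TMM scaling and without cells rich in haemoglobin.

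Oas1a, which makes the activator of the antiviral nuclease RNase L, was most abundant in endothelial cells and had its widest gap in oligodendrocytes. Its levels were 21.2, 14.2, 3.76 and 4.1 CPM in microglia, a nearest ratio of 3.46. In endothelial cells they were 309, 228, 67 and 54.8 CPM, a ratio of 3.4, and in oligodendrocytes 4.02, 3.95, 0.159 and 0.329 CPM, a ratio of 12. T cells had the narrowest gap, 58.8, 39.3, 19 and 17.8 CPM with a ratio of 2.07 (95% counting interval 1.06 to 4.1), and did not pass with TMM scaling. Irf7, the factor that drives late interferon genes, was at 18, 7.91, 1.51 and 1.1 CPM in microglia (ratio 5.26). It was at 113, 80.3, 36.4 and 33.3 CPM in endothelial cells (ratio 2.21) and at 2.77, 2.14, 0.317 and 0.329 CPM in oligodendrocytes (ratio 6.53). In T cells Irf7 was at 62.8, 41.1, 21.1 and 11 CPM, a ratio of 1.95 (95% counting interval 1.02 to 3.74) that was lost with TMM scaling, without the cells over 1% haemoglobin and without the single cell with most Irf7 UMIs.

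RT1-S3 encodes a nonclassical MHC class I protein and belongs to a family of near-identical genes, between which the counting may have split or misassigned reads. It stood at 43.8, 40.8, 2.54 and 2.76 CPM in oligodendrocytes, a nearest ratio of 14.8 (95% counting interval 10.8 to 20.8). The ratio was 2.03 in microglia, 1.74 in endothelial cells and 1.68 in T cells, where it did not pass with TMM scaling. Mrpl43 was at 7.06, 5.83, 20.9 and 25.7 CPM in oligodendrocytes and 2.67, 1.79, 21.1 and 17.8 CPM in T cells, with nearest ratios of 2.95 and 6.65, so that it was lower in sets 1 and 2. In microglia it was at 2.8, 2.15, 6.94 and 8.34 CPM, and in endothelial cells at 1.82, 4.87, 10.7 and 11.2 CPM, where the shift was lost with TMM scaling and without cells over 1% haemoglobin.

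Hbb, the beta chain of haemoglobin, and Alox15, a lipoxygenase of maturing red cells and some leukocytes, had the widest gaps of the 8 genes in microglia and endothelial cells. Hbb was at 30160.0, 45812, 478 and 512 CPM in endothelial cells and 1425, 1105, 11.4 and 12.9 CPM in microglia. After cells over 1% haemoglobin were left out it still stood at 190, 173, 6.54 and 3.94 CPM in endothelial cells and at 164, 134, 2.07 and 3.16 CPM in oligodendrocytes. Alox15 was at 1049, 1241, 0.238 and 0.325 CPM in endothelial cells and 47, 30.04, 0 and 0.15 CPM in microglia. In oligodendrocytes it was at 7.06, 14.1, 0 and 0 CPM, at least 29.7-fold higher when 3 counts are taken for the sets at 0. In T cells 1 cell of set 1, with 44.4% haemoglobin UMIs, held 78.2% of the Hbb and 85.7% of the Alox15 UMIs. Without that cell Hbb in T cells was at 199, 188, 1.06 and 2.09 CPM and still shifted, whereas Alox15, at 6.77, 14.3, 0 and 0.523 CPM, did not. Summed red cell markers, which include Hbb, were 3428, 2768, 153 and 245 CPM in microglia, and the part of red cells in the other shifts was not tested.

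**Figure D2:**
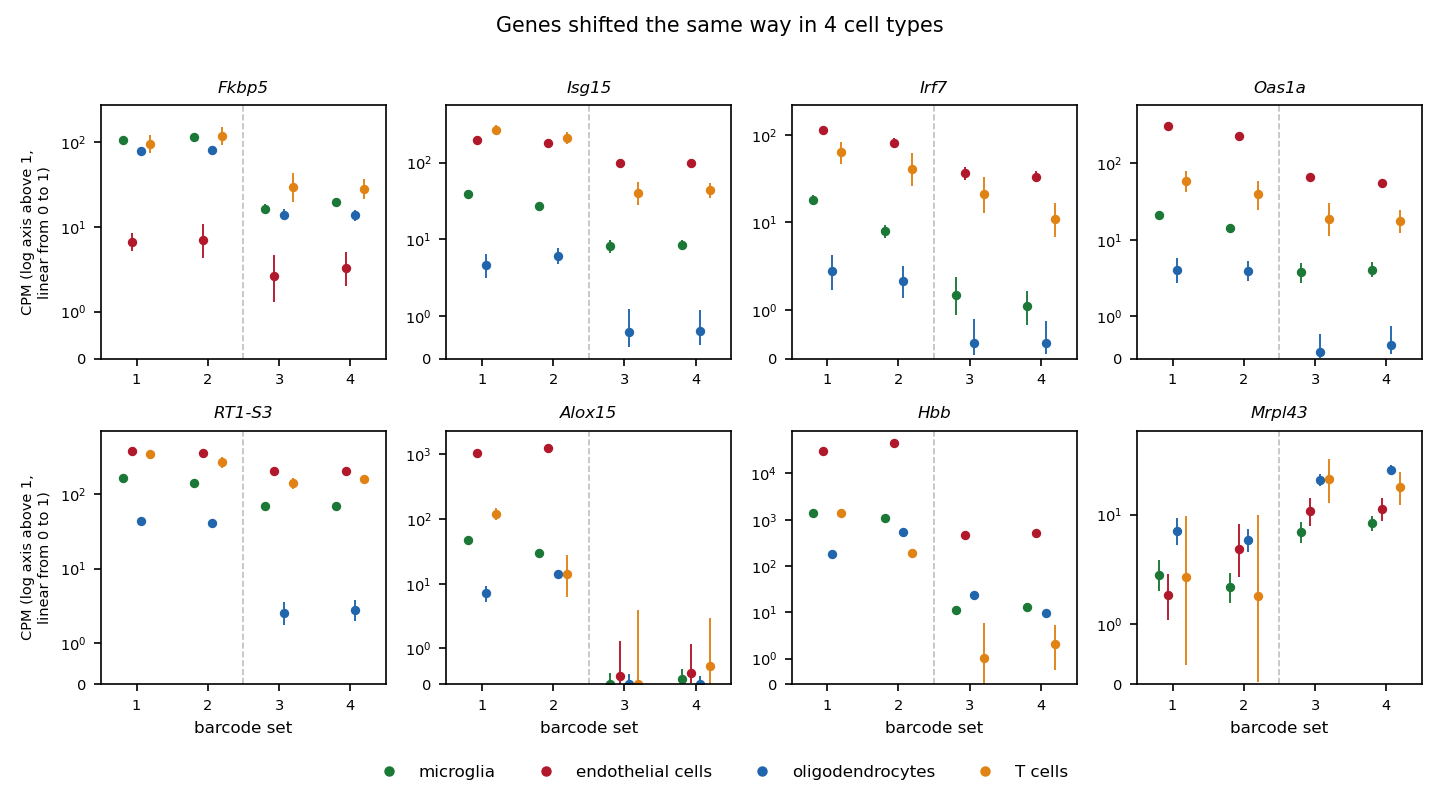
Level of each of the 8 genes that shifted one way in all 4 types (vertical axis, CPM, logarithmic above 1 and linear from 0 to 1) in barcode sets 1 to 4 (horizontal axis), with points coloured by cell type and bars for 95% counting intervals. The dashed line parts sets 1 and 2 from sets 3 and 4, and for Fkbp5 the microglia fall from 105 and 116 CPM to 16.3 and 19.4 CPM across it.

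Among the same 5185 genes, 32 were higher in sets 1 and 2 in at least 3 types (0.617%) and 23 were lower (0.444%). The following were chosen after their values were seen. Ubd, a ubiquitin-like protein that interferon gamma and tumour necrosis factor induce, was at 132, 123, 1.34 and 2.0 CPM in microglia, a nearest ratio of 61.6 (95% counting interval 45.1 to 86.4). It was at 2.35, 4.89, 0.238 and 0.263 CPM in oligodendrocytes (ratio 8.96) and 307, 85.8, 4.22 and 3.66 CPM in T cells (ratio 20.3, with 39.1% of the UMIs in 1 cell). In endothelial cells Ubd was at 9.0, 10.8, 8.56 and 12.4 CPM, and the sides overlapped. Ifi27 followed the same 3 types, at 263, 229, 39.8 and 42.2 CPM in oligodendrocytes (ratio 5.43), with ratios of 2.35 in microglia and 2.96 in T cells. In endothelial cells Ifi27 reached a ratio of 1.21, short of the limit, and it passed there with TMM scaling. Tspo, the mitochondrial protein imaged as a sign of glial activation, was instead higher in endothelial cells (326, 332, 133 and 129 CPM, ratio 2.45), oligodendrocytes (ratio 1.86) and microglia (ratio 1.5).

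The tubulin gene Tubb2b, the quinone reductase gene Nqo2 and the intermediate filament gene Nes were lower in sets 1 and 2 in microglia, endothelial cells and oligodendrocytes, and had under 50 UMIs in T cells, so that they are outside these 23. Tubb2b was at 1.8, 1.54, 16.9 and 21.3 CPM in oligodendrocytes, a nearest ratio of 9.39 (95% counting interval 5.37 to 17.9), with ratios of 4.01 in endothelial cells and 1.94 in microglia. Nqo2 was at 0.359, 0.2, 5.27 and 4.85 CPM in microglia (ratio 13.5) and 0.277, 0.172, 4.05 and 3.09 CPM in oligodendrocytes (ratio 11.1). Nes was at 1.44, 0.851, 25.9 and 30.4 CPM in microglia, a ratio of 18 (95% counting interval 11.5 to 29.9), and at 23.5, 17, 58.9 and 68 CPM in endothelial cells, a ratio of 2.51. In oligodendrocytes Nes was at 0.693, 1.37, 5.24 and 2.56 CPM, a ratio of 1.87 that did not pass with TMM scaling.

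Interferon response genes were higher in sets 1 and 2 in microglia, oligodendrocytes and T cells. In microglia 17 of 23 measured members were higher in sets 1 and 2 and 0 lower, and the list's median log2 ratio lay 1.82 above that of all genes. In oligodendrocytes 14 of 18 were higher and 0 lower (median 2.13 above all genes), and in T cells 13 of 18 were higher and 0 lower (median 1.61 above). The shares of all genes higher were 5.41%, 2.38% and 4.84% in the same order. With TMM scaling 19, 14 and 6 members were higher in these 3 types. Rtp4, a chaperone of membrane receptors that interferon induces, showed the gap in oligodendrocytes at 12.1, 13.6, 0.476 and 0.526 CPM, a nearest ratio of 22.9 (95% counting interval 11.1 to 54.8). Usp18, which removes Isg15 from proteins and damps interferon signalling, stood at 8.59, 6.86, 0.476 and 0.526 CPM there, a ratio of 13.1. Both genes were thus below 1 CPM in sets 3 and 4 and well above it in sets 1 and 2. Mx2, an antiviral GTPase, was at 97.6, 62.5, 6.33 and 12.5 CPM in T cells, a ratio of 4.99, and Ifitm3, which blocks viral entry, at 74.7, 53, 12.5 and 9.44 CPM in microglia, a ratio of 4.26.

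Endothelial cells differed from this by total UMIs within the same list: 6 of 23 measured members were higher and 4 lower. With TMM scaling 13 were higher and 2 lower, more higher members than in T cells. The contrast in higher members thus depended on the scaling. Among all endothelial genes, 2.44% were higher and 16.2% lower. The chemokine genes Cxcl9, Cxcl10 and Cxcl11, which attract activated T cells, were lower there. Cxcl9 in endothelial cells was at 4.85, 2.78, 67.7 and 112 CPM, lower by a nearest ratio of 14 (95% counting interval 10.3 to 19.4), while in microglia it was at 37.7, 23.6, 8.45 and 2.1 CPM, higher by 2.79. Cxcl10 was at 31.5, 12.5, 66.6 and 160.5 CPM in endothelial cells (lower, ratio 2.11) and at 793, 600.4, 273 and 333 CPM in T cells (higher, ratio 1.8, not with TMM scaling). Markers of monocytes and border macrophages in microglia were 895, 785, 293 and 405 CPM in sets 1 to 4, and those of neutrophils 175, 329, 5.10 and 6.44 CPM. They moved with the microglial interferon genes, and their part in them was not tested.

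Of 10 measured MHC class I genes, 6 were higher in oligodendrocytes and 0 lower, and the median lay 1.16 above all genes, against 2 of 11 higher in microglia and in T cells and 0 of 11 in endothelial cells, where 3 were higher with TMM scaling. Among all genes, 2.38% were higher in oligodendrocytes, 5.41% in microglia, 4.84% in T cells and 2.44% in endothelial cells. Psmb9, a subunit of the immunoproteasome, was at 23.1, 32.7, 3.89 and 4.99 CPM in oligodendrocytes (ratio 4.63). Tap1, the peptide transporter, was at 22.2, 27.3, 6.11 and 4.47 CPM there (ratio 3.63). RT1-CE10, a class I heavy chain gene, was higher in oligodendrocytes (ratio 4.11), microglia (ratio 2.41) and T cells (ratio 2.01). Its near-identical relative RT1-A1 was lower in endothelial cells at 291, 309, 774 and 858 CPM (ratio 2.5), and reads may be split between these copies. Of the MHC class II list, whose products present antigen to helper T cells, 3 of 7 genes were higher in microglia, 3 of 4 in endothelial cells, 1 of 5 in oligodendrocytes and 0 of 5 in T cells. Markers of monocytes and border macrophages in endothelial cells were 214, 357, 42.8 and 33.8 CPM in sets 1 to 4 and moved with these genes, and their part was not tested. RT1-Ba, a class II alpha chain gene, was at 3642, 3305, 1264 and 1139 CPM in microglia, a ratio of 2.62.

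Glucocorticoid response genes were higher in oligodendrocytes, where 10 of 16 measured members were higher and 0 lower, with a median 1.47 above all genes. Astrocyte markers in oligodendrocytes were 348, 390, 202 and 213 CPM in sets 1 to 4 and moved with this list, and their part was not tested. In endothelial cells 6 of 17 list members were higher and 2 lower, in microglia 3 of 15 higher and 1 lower. T cells had 2 of 12 higher and 0 lower. The shares of all genes higher were 2.38% in oligodendrocytes, 2.44% in endothelial cells, 5.41% in microglia and 4.84% in T cells. Sult1a1, a sulfotransferase gene that glucocorticoids induce, was at 162, 178, 0.793 and 0.591 CPM in oligodendrocytes, a nearest ratio of 204 (95% counting interval 110.3 to 426). In endothelial cells, where it is common, Sult1a1 was at 226, 232, 119 and 98 CPM, a ratio of 1.91. Thus Sult1a1 was below 1 CPM in oligodendrocytes of sets 3 and 4 but near 100 CPM in their endothelial cells. Pdk4, the kinase that turns off pyruvate dehydrogenase, was at 52.5, 48.6, 4.92 and 4.53 CPM in oligodendrocytes, a ratio of 9.87 (95% counting interval 7.58 to 13). Sgk1, a kinase of salt and stress hormone responses, was at 1985, 2029, 366 and 362 CPM in oligodendrocytes (ratio 5.43, 95% counting interval 5.25 to 5.61) and at 282, 266, 162 and 157 CPM in endothelial cells (ratio 1.64). In microglia Sgk1 lay the other way, at 601, 679.9, 1135 and 1119 CPM, a ratio of 1.65 that did not pass with TMM scaling. Klf9, a transcription factor gene that glucocorticoids induce, was also lower in endothelial cells, at 137, 133, 311 and 292 CPM (ratio 2.13), and Dusp1, a phosphatase gene, was higher in T cells at 930.4, 995, 379 and 462 CPM (ratio 2.01).

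**Figure D3:**
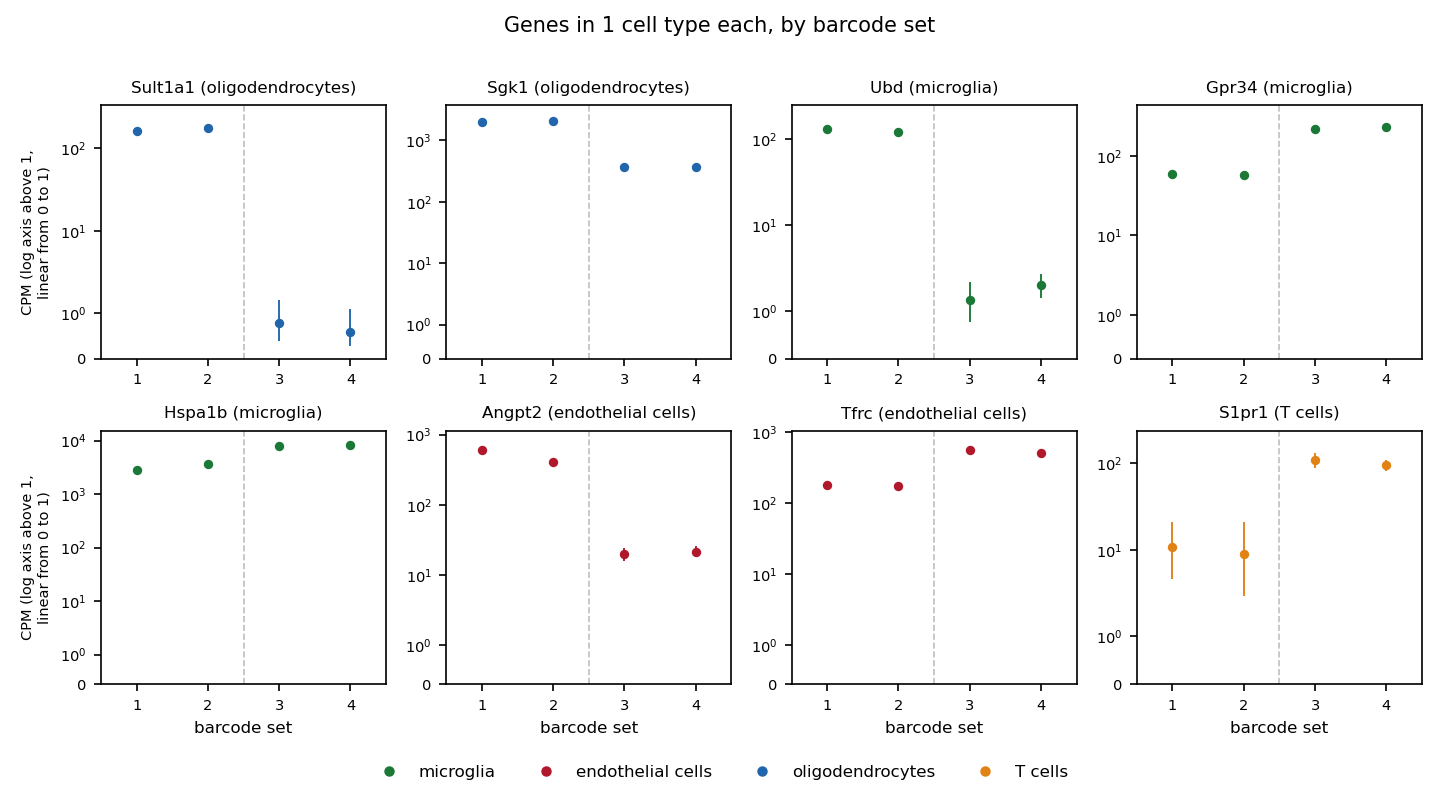
Levels of 8 genes, each in 1 cell type (vertical axis, CPM, logarithmic above 1 and linear from 0 to 1), in barcode sets 1 to 4 (horizontal axis), with bars for 95% counting intervals. Sult1a1 in oligodendrocytes stands at 162 and 178 CPM left of the dashed line and below 1 CPM right of it, while Gpr34, Hspa1b, Tfrc and S1pr1 are lower left of the line.

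Heat shock genes were lower in sets 1 and 2. Of 12 measured members, 8 were lower in microglia, 8 in endothelial cells, 2 in oligodendrocytes and 3 in T cells, with 0 higher in any type, and the microglial median lay -1.27 from that of all genes. The shares of all genes lower were 8.27%, 16.2%, 3.46% and 0.842% in the same order of types. With TMM scaling the counts of members lower were 7, 3, 2 and 8, and 2 members were higher in oligodendrocytes. Without cells over 1% haemoglobin 3 members were lower in endothelial cells, and the other counts did not move. Bag3, a cochaperone that directs damaged proteins to autophagy, was at 238, 257, 1087 and 1104 CPM in microglia, a nearest ratio of 4.24 (95% counting interval 4.1 to 4.38). Hspb1, a small chaperone gene, was at 890.3, 1265, 4307 and 4460.1 CPM in microglia (ratio 3.4), and Dnajb1, a partner of Hsp70, at 525, 658, 2215 and 2403 CPM (ratio 3.37). For all 3 genes both sets 3 and 4 stood more than 3-fold above both sets 1 and 2. Hsph1, whose promoter is shown above, was lower in microglia (375, 354, 1032 and 1023 CPM, ratio 2.73), endothelial cells (ratio 2.63) and T cells (ratio 1.86), and in oligodendrocytes it was at 54.7, 51, 56 and 76.2 CPM. Hspe1, the mitochondrial cochaperone, was lower in the same 3 types, with ratios of 3.13, 2.14 and 1.8. Hspa1b, an inducible Hsp70 gene, was at 148, 130.2, 321 and 637 CPM in oligodendrocytes (ratio 2.17) and at 2786, 3626, 7759 and 8381 CPM in microglia (ratio 2.14). Median mitochondrial shares of microglia were 6.28%, 5.73%, 4.52% and 3.5% in sets 1 to 4, higher where these genes were lower, and their part was not tested.

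Of the immediate early genes, which dissociation also induces, 1 of 19 was higher and 2 lower in microglia, 0 of 19 higher and 3 lower in endothelial cells, 1 of 18 higher and 0 lower in oligodendrocytes, and 2 of 17 higher and 0 lower in T cells. Among all genes, 5.41% were higher and 8.27% lower in microglia, and 2.44% and 16.2% in endothelial cells. The shares were 2.38% and 3.46% in oligodendrocytes, and 4.84% and 0.842% in T cells. With TMM scaling 1 immediate early gene was higher and 1 lower in microglia, and 1 higher and 0 lower in endothelial cells. In T cells 2 were higher and 2 lower with that scaling. Ier3 was lower in microglia at 1529, 1846, 4146 and 4556 CPM (ratio 2.25) and Atf3 was higher in T cells at 472, 525, 156 and 158 CPM (ratio 2.99). Of 45 or 46 measured ribosomal protein genes in each type, 0 shifted either way, and with TMM scaling 4 were higher in microglia, 4 higher in endothelial cells and 1 lower in T cells. Of 28 nuclear genes of the respiratory chain, 0 shifted in microglia, oligodendrocytes or T cells and 2 were lower in endothelial cells, whereas with TMM scaling 1 was lower in T cells and 0 shifted in the other types.

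**Figure D4:**
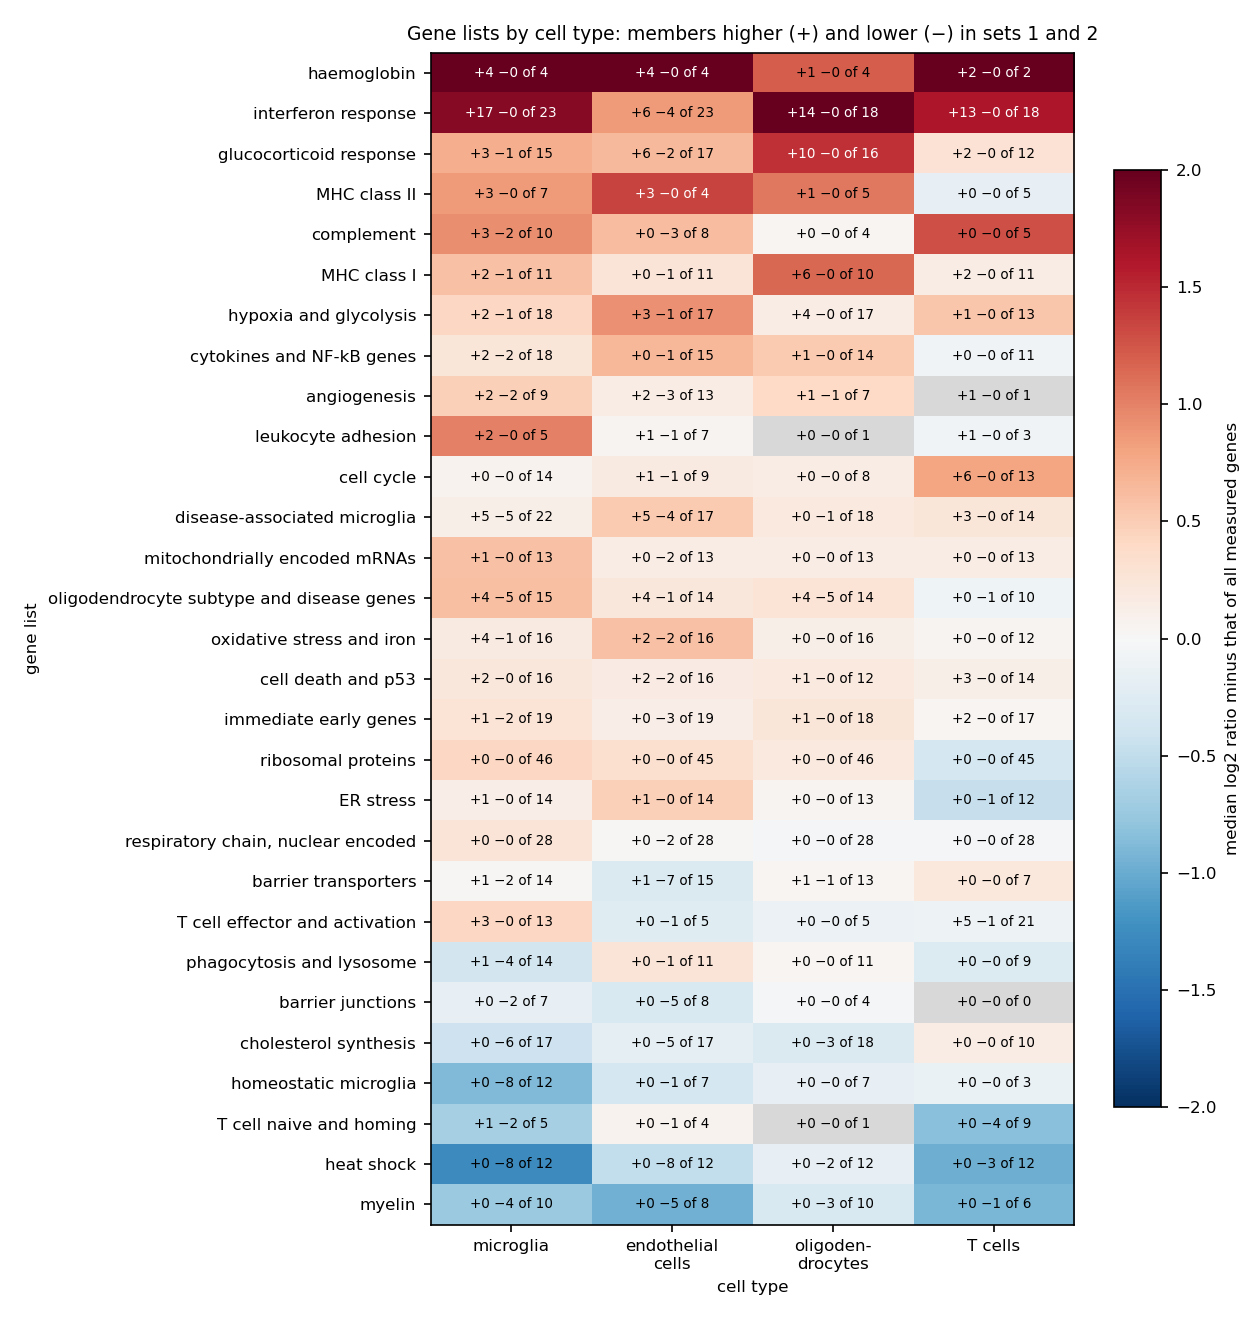
Median log2 ratio of each gene list (rows) in each cell type (columns), sets 1 and 2 over sets 3 and 4, minus the median of all measured genes of the type, in red where higher and blue where lower, with grey for lists under 2 measured genes. Each cell gives the members higher (+), lower (−) and measured, such as +17 −0 of 23 for the interferon list in microglia.

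In microglia, genes of the resting state were lower in sets 1 and 2. Of 12 measured homeostatic genes, 8 were lower and 0 higher, also with TMM scaling and without cells over 1% haemoglobin, against 8.27% of all genes. Gpr34, a lysophospholipid receptor of resting microglia, was at 58.8, 57.3, 221 and 235 CPM (nearest ratio 3.77, 95% counting interval 3.48 to 4.08). In the same cells, summed markers of monocytes and border macrophages were 895, 785, 293 and 405 CPM in sets 1 to 4. Those of neutrophils were 175, 329, 5.10 and 6.44 CPM. The part of such cells in the shifts of this paragraph was not tested. Genes of disease-associated microglia split: 5 of 22 were higher and 5 lower, against 5.41% and 8.27% of all genes. Axl, a receptor for dying cells, was at 84.3, 64, 10.3 and 10.7 CPM (ratio 5.99), the lectin gene Lgals3 at 67.4, 59.1, 8.28 and 10.04 CPM (ratio 5.88) and the lysosomal gene Cd68 at 259, 262, 106 and 105 CPM (ratio 2.44). The growth factor gene Igf1 was lower at 5.68, 5.41, 11.2 and 17.8 CPM (ratio 1.97). Among cytokine genes, Il6 was higher (36.6, 40.9, 13.7 and 12.9 CPM, ratio 2.67), whereas Il1a was lower (60.9, 60.2, 152 and 157 CPM, ratio 2.5). Hmox1, which degrades haem, was lower at 119, 109, 414 and 434 CPM (ratio 3.47, 95% counting interval 3.29 to 3.67), although haemoglobin UMIs were higher in the same sets. F11r, a junction adhesion gene, was at 9.63, 12.3, 112 and 101 CPM, a ratio of 8.22 (95% counting interval 7.19 to 9.42).

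A gene was counted as shifted in 1 type only when it was measured in all 4, its nearest ratio in the same direction was less than 25% above 1 in each other type, and the ratio of the 2 types' ratios also left out 1 by counting error. Such genes may still have shifted the opposite way elsewhere. In microglia only, 18 genes were higher (0.347% of 5185) and 36 lower (0.694%). With TMM scaling 32 were higher and 33 lower, and 31 of the 54 genes were among them. Cst3, the protease inhibitor cystatin C and one of the most abundant microglial messages, was at 35100.2, 36433, 84271 and 80750.4 CPM, lower by 2.22, while its levels in endothelial cells were 1564, 1788, 2154 and 2264 CPM. Cd9, a tetraspanin gene, was at 115, 119, 286 and 267 CPM (ratio 2.24), and Slc16a6, a carrier of small acids, at 10.8, 12.9, 47.8 and 45 CPM (ratio 3.48). Higher in microglia only were Lmna, the nuclear lamina gene, at 404, 404, 178 and 182 CPM (ratio 2.21), Eef2k, which slows protein synthesis, at 183, 196, 64.8 and 63.3 CPM (ratio 2.82), and Pik3ip1, an inhibitor of PI3 kinase, at 41, 44.8, 15.2 and 14.1 CPM (ratio 2.69).

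In endothelial cells only, 22 genes were higher (0.424%) and 226 lower (4.36%). With TMM scaling 88 were higher and 15 lower, and 30 of the 248 genes were among them, so that most of the 248 were not counted under that scaling. Genes that passed both with TMM scaling and without cells over 1% haemoglobin included Ndrg1, a hypoxia-induced gene, at 1223, 1084, 257 and 270.1 CPM (nearest ratio 4.02, 95% counting interval 3.78 to 4.26), and Litaf, at 111, 75.4, 19 and 26 CPM (ratio 2.9). Lower under both were Nampt, which makes the precursor of NAD, at 82, 69.9, 233 and 238 CPM (ratio 2.84), and Cavin1, a coat protein of caveolae, at 224, 221, 557 and 609 CPM (ratio 2.49). Nfkb1 was lower at 42.9, 42.7, 100.1 and 103 CPM (ratio 2.33), and Pfkfb3, a driver of endothelial glycolysis, at 13.3, 7.3, 34 and 36.7 CPM (ratio 2.55). Mthfd2, Creg1 and Mkrn1 counted as higher in endothelial cells only but did not shift once the cells over 1% haemoglobin were left out.

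In endothelial cells a few members of the angiogenesis list shifted, in both directions. Angpt2, which loosens vessels by blocking the receptor Tek, was at 613, 412, 19.97 and 21.6 CPM, higher by a nearest ratio of 19 (95% counting interval 15.9 to 23). Tek itself was at 135, 136, 342 and 344 CPM, lower by 2.51, and its partner Tie1 at 84.7, 70.6, 275 and 269 CPM, lower by 3.18. Apln, a peptide of sprouting tip cells, was higher at 64.2, 41.4, 11.4 and 11.5 CPM (ratio 3.58), and its receptor gene Aplnr lower at 1.82, 3.48, 21.4 and 21.1 CPM (ratio 6.08). Adm, a vasodilator gene that hypoxia induces, was at 289, 236, 67.5 and 68.5 CPM (ratio 3.44). All of these calls also held with TMM scaling and without cells over 1% haemoglobin. Across the angiogenesis list 2 of 13 were higher (Angpt2 and Apln) and 3 lower (Tek, Tie1 and Aplnr), and the rest did not shift. Among all endothelial genes, 2.44% were higher and 16.2% lower.

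Of 15 transporter genes of the blood-brain barrier, 7 were lower and 1 higher in endothelial cells, where 16.2% of all genes were lower. With TMM scaling 6 were lower and 2 higher, and without cells over 1% haemoglobin 5 were lower and 2 higher. Tfrc, the transferrin receptor, was at 179, 174, 551 and 503 CPM, a nearest ratio of 2.81 (95% counting interval 2.65 to 2.98), and Abcg2, a drug efflux pump, at 343, 336, 852 and 849 CPM, a ratio of 2.47 (95% counting interval 2.37 to 2.58). The lactate carrier gene Slc16a1 was the member that was higher, at 56.3, 59.4, 33.8 and 21.6 CPM (ratio 1.67). In junction genes 5 of 8 were lower, among them Tjp1 at 252, 257, 529 and 582 CPM (ratio 2.06), but 0 were lower with TMM scaling. Pericyte and smooth muscle markers in endothelial cells were 471, 310, 899 and 915 CPM in sets 1 to 4 and moved with these genes, and their part was not tested.

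In oligodendrocytes only, 18 genes were higher (0.347%) and 13 lower (0.251%). With TMM scaling 23 were higher and 15 lower, and 18 of the 31 genes were among them. Higher genes included Psme1, a proteasome activator gene, at 62.6, 66.1, 23.8 and 27.5 CPM (nearest ratio 2.27, 95% counting interval 1.99 to 2.6), and RT1-CE4 at 146, 167, 47.1 and 57 CPM (ratio 2.56). Ddit4, an inhibitor of mTOR that glucocorticoids and stress induce, was at 504, 516, 158 and 168 CPM (ratio 3.01, 95% counting interval 2.86 to 3.16), and Ptp4a3, a phosphatase gene, at 740.4, 793, 275 and 295 CPM (ratio 2.51). In microglia Ddit4 was at 88.9, 109, 112 and 137 CPM. Lower in oligodendrocytes only were the actin gene Actg1 at 21.1, 21.1, 48.6 and 45.1 CPM (ratio 2.14) and the glycolipid carrier gene Gltp at 321, 334, 699.7 and 692 CPM (ratio 2.07). Hopx was lower there at 15.1, 15.3, 39.8 and 51.1 CPM (ratio 2.61) but higher in microglia at 193, 159, 9.45 and 20.6 CPM (ratio 7.69).

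Genes of mature oligodendrocytes moved in both directions, with 4 of 14 subtype and disease genes higher and 5 lower. In this type 2.38% of all genes were higher and 3.46% lower. Car2, carbonic anhydrase 2, was at 1846, 1974, 4593 and 4823 CPM (nearest ratio 2.33, 95% counting interval 2.29 to 2.36) and the protease gene Klk6 at 225, 253, 447 and 475 CPM (ratio 1.77), both lower. Cdkn1a, the cell cycle inhibitor p21, was higher at 147, 156, 39.99 and 44.6 CPM (ratio 3.3, 95% counting interval 3.0 to 3.64). Of 10 measured myelin genes 3 were lower and 0 higher, and 1 was lower with TMM scaling, namely Ugt8, an enzyme of myelin lipid synthesis, at 429.6, 402, 753 and 759.6 CPM (ratio 1.75). Myelin messages were also lower in other types, such as Cnp in microglia at 73.8, 79.3, 213 and 215 CPM (ratio 2.69). Summed oligodendrocyte markers in microglia were 294, 361, 634 and 607 CPM in sets 1 to 4, and their part was not tested. Of the cholesterol synthesis genes, 6 of 17 were lower in microglia, 5 of 17 in endothelial cells, 3 of 18 in oligodendrocytes and 0 of 10 in T cells. The shares of all genes lower were 8.27%, 16.2%, 3.46% and 0.842% in the same order. Members higher numbered 0 in each type, and with TMM scaling 4, 2, 1 and 0 members were lower.

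In T cells only, 116 genes were higher (2.24%) and 5 lower (0.0964%), and with TMM scaling 13 were higher and 30 lower, so that this balance too changed with the scaling. Cdc20, which opens the way to anaphase, was at 46.8, 44.7, 1.05 and 8.36 CPM, a nearest ratio of 5.34 (95% counting interval 2.74 to 10.7), with 23.4% of its UMIs in 1 cell. Rbpj, the factor of Notch signalling, was at 166, 166, 35.9 and 45.5 CPM (ratio 3.65, 95% counting interval 2.75 to 4.85) and Cd83, an activation marker, at 553, 552, 180.4 and 178 CPM (ratio 3.06, 95% counting interval 2.53 to 3.71). Lower in T cells was Plac8 at 54.8, 71.5, 414 and 339 CPM (ratio 4.74, 95% counting interval 3.44 to 6.7). The immunoglobulin mu gene Igh-6, whose reads may be shared with related segments, was also lower, at 5386, 154, 11577 and 17759 CPM. Its spread inside each side was wide, and B cell markers in these T cells were 61.5, 17.9, 48.5 and 540 CPM. In the other types Igh-6 lay the opposite way. Its median log2 ratio was 2.12 in microglia, 2.46 in endothelial cells and 2.21 in oligodendrocytes, against -3.97 in T cells.

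T cell lists gave a further contrast. Among all 5704 genes measured in T cells, 4.84% were higher and 0.842% lower, and with TMM scaling 112 were higher and 126 lower. Of 9 measured genes of naive cells and lymph node homing, 4 were lower and 0 higher, with and without TMM scaling. S1pr1, which lets T cells leave tissue, was at 10.7, 8.93, 109 and 95.7 CPM, a nearest ratio of 8.94 (95% counting interval 4.44 to 21), and the factor gene Lef1 at 1.34, 10.7, 51.7 and 52.3 CPM, a ratio of 4.82 (95% counting interval 2.06 to 13.8). Of 21 effector and activation genes 5 were higher and 1 lower, and with TMM scaling 3 were higher and 4 lower. Gzmk was at 801, 908, 412 and 354 CPM (ratio 1.94) and the costimulatory receptor gene Tnfrsf4 at 123, 132, 35.9 and 40.8 CPM (ratio 3.02), both higher, while Gzmm was lower at 36.1, 104, 501 and 589 CPM (ratio 4.84, 95% counting interval 3.68 to 6.47). Of 13 cell cycle genes 6 were higher and 0 lower (2 with TMM scaling), among them Cdk1 at 44.1, 50.03, 3.16 and 13.6 CPM (ratio 3.25). Il17a and Cxcl13, chosen after their values were seen, lay at 0 UMIs on one side: Il17a had 0, 0, 28 and 60 UMIs in sets 1 to 4, at least 5.51-fold lower, and Cxcl13 had 28, 44, 0 and 0 UMIs, at least 11.8-fold higher, with 3 counts taken for each set at 0. With 145 to 348 T cells in a set, these levels rest on few cells. Monocyte and border macrophage markers in T cells were 56.1, 75.0, 418 and 342 CPM in sets 1 to 4, with Cd163 and Ms4a7 at 0. Nearly all of each sum was Plac8, a member of that list whose T cell levels are given above. The sums thus restate the Plac8 shift, and the part of monocytes and macrophages was not tested.

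Of the genes measured in all 4 types, 62 (1.2%) were higher in 1 type and lower in another. Cdc42ep3, an effector of the GTPase Cdc42, was at 624, 611, 173 and 166 CPM in endothelial cells and 30.1, 36.6, 122 and 146 CPM in microglia. It was thus higher in sets 1 and 2 in the first (ratio 3.54) and lower in the other (ratio 3.32). Cxcl11 was at 17.5, 13.3, 3.18 and 3.65 CPM in microglia and 10.4, 5.21, 60.1 and 151 CPM in endothelial cells, higher by 3.64 and lower by 5.77. Gpr37l1, a glial receptor gene, was at 5.54, 5.16, 0.92 and 0.5 CPM in microglia and 4.02, 4.03, 12.7 and 15.4 CPM in oligodendrocytes, with the sides again in opposite order.

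**Figure D5:**
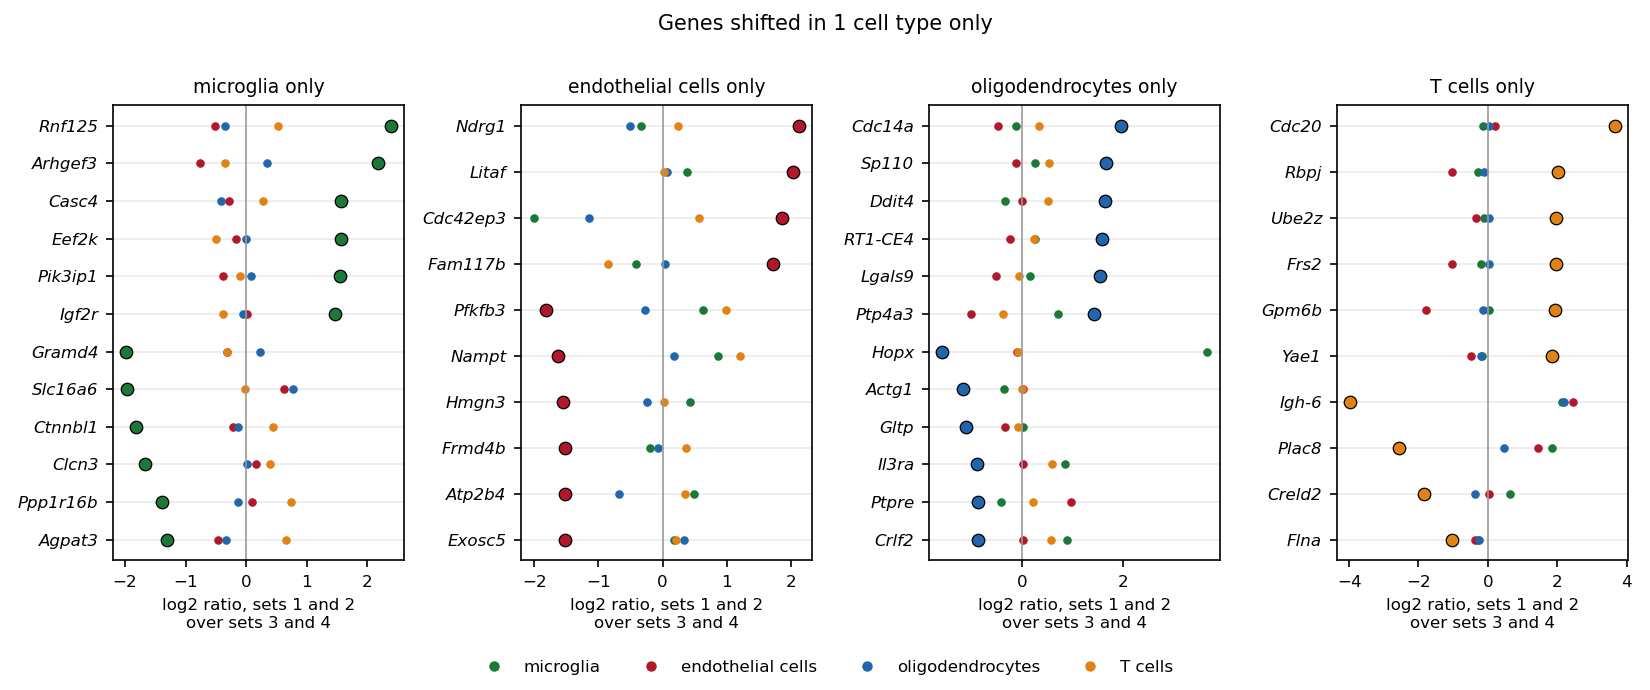
Median of the 4 cross-set log2 ratios, sets 1 and 2 over sets 3 and 4 (horizontal axis), of up to 12 genes a panel that shifted in 1 cell type only, also with TMM scaling and without cells over 1% haemoglobin (vertical axis, gene names). The large outlined point is the type of the panel and the small points the other types; Hopx lies lower in oligodendrocytes and on the far right in microglia.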

How the data were processed

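Single-cell RNA libraries of rat hippocampus had been counted by the authors into 1 pooled matrix of 32623 genes and 31638 barcodes; the values are UMI counts as deposited, not normalized, made with Cell Ranger 5.0.0 per the file headers. The submitters' processing notes name Cell Ranger, STAR and Rnor_6.0. The matrix held 180847756 UMIs.

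Cells were filtered and typed by the thresholds in the report, and cells that met 2 or more type rules were left out of sums. Counts were summed per type and barcode set and divided by the total (CPM). Exact binomial 95% intervals of ratios and Poisson intervals of levels cover counting error of UMIs only. No model was fitted and no p-value computed, because no set could be mapped to a titled sample. Genes of the type rules (12) were left out of counts. Ratios of cross pairs had 0.5 UMI added. Gene lists (30, with 504 entries, 19 not matched) give counts and medians only. In a summed type, fewer cells of a state and less RNA per cell cannot be told apart.

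Named genes were, by nearest ratio, up to 12 per direction for all 4 types, with genes of 3 types where under 6, up to 8 per type and direction for 1 type only, up to 8 for opposite directions, and 2 per list, direction and type. Symbols without a gene name were counted and not named, and a few genes are not reported here. Members, lists and thresholds were chosen with earlier results of these data known. Alternatives were 2 other UMI minimums, 2 other ratios, TMM factors (edgeR 4.0.16, factors only), totals without mitochondrial and haemoglobin genes, per-cell means, all cells of a rule, doublets left out (Scrublet in scanpy 1.11.5, expected share 6%), a stricter cell filter, doubled marker thresholds, thinning to 1500 UMIs and each set left out. Leaving out cells over 1% haemoglobin was added after seeing the data. Tools were Python 3.11.15, numpy 2.4.6, scipy 1.17.1, pandas 2.3.3, matplotlib 3.10.9 and R 4.3.3. The scripts were checked on simulated data.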

Additional observations from a re-analysis of the deposited data

Results flagged for a closer look

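Some genes lay above the divide in both sets of one side in 1 cell type and below it in another, and these are given as nearest ratios between sets 1 and 2 and sets 3 and 4. The difference between the types was not tested, and the types of a set share 1 library. Dapk2, a calmodulin-dependent kinase gene, was lower in microglia (3.90) and T cells (2.07) and higher in endothelial cells (3.81). Cxcl11, a chemokine gene, was higher in microglia (3.64) and lower in endothelial cells (5.77). Tmem178a was lower in microglia (10.4) and higher in endothelial cells (3.38). Cdc42ep3 was lower in microglia (3.32) and oligodendrocytes (1.92) and higher in endothelial cells (3.54). The unnamed gene NEWGENE_1311658 was lower in microglia (3.28) and higher in T cells (5.11). Gpr37l1 was higher in microglia (5.61) and lower in oligodendrocytes (3.15). Plac8 was higher in microglia (3.14) and endothelial cells (1.85) and lower in T cells (4.74).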

How the results depend on the processing

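Counts of shifted genes depended on the ratio asked for. At a nearest ratio of 2, against 1.5, they were 791 in microglia (1545 in the report), 577 in endothelial cells (1858), 258 in oligodendrocytes (616) and 146 in T cells (324), with 5 genes in all 4 types (8) and 109 in 1 type only (454). With a limit of 25% above 1 they were 2733, 3455 and 1267 in microglia, endothelial cells and oligodendrocytes, 18 in all 4 types and 860 in 1 type only. A minimum of 200 UMIs left 172 genes in T cells, 2 in all 4 types and 210 in 1 type only. Thinning to 1500 UMIs a cell left 834, 466, 354 and 86 genes by type in the same order, 3 in all 4 types (Hbb alone shared with the 8) and 57 in 1 type only. Endothelial counts were 824 with TMM scaling, 1042 with totals without mitochondrial and haemoglobin genes, 1145 with per-cell means, and 713 or 712 without cells over 1% haemoglobin, with or without haemoglobin in the totals. The same 5 settings gave 249, 301, 282, 260 and 261 genes in 1 type only. With all cells that met a rule, 13 genes shifted in all 4 types. Leaving out 1 set takes away pairs that must agree and gave 2403 to 2977 genes in endothelial cells (2977 without set 1, 2823 without set 3), 827 to 1045 in oligodendrocytes, 446 to 777 in T cells, 11 to 20 in all 4 types and 494 to 772 in 1 type only.

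The highest over the lowest share of kept cells among sets was 1.49 for microglia and 1.37 with the stricter cell filter, and 1.91 for oligodendrocytes, 2.18 with that filter and 1.76 with all cells that met the rule. Of 8142 values of single genes under 18 alternatives, 7194 kept their direction and side of the limit, 942 kept the direction only and 6 reversed. These 6 were in endothelial cells without cells over 1% haemoglobin, with or without haemoglobin in the totals: Car2 (0.642 and 0.642), Creg1 (0.612 and 0.613) and Mkrn1 (0.803 and 0.803). No paired analysis was possible because the barcode sets carry no replicate number and map to no titled sample.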

Other observations

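Genes of the circadian clock, chosen after their values were seen, included lower ones in endothelial cells of sets 1 and 2. Of 15 measured of the 19 listed, 7 were lower and 2 higher, where 16.2% of all genes were lower and 2.44% higher. With TMM scaling 5 were lower and 2 higher. Dbp, an output factor of the clock, was at 37.6, 39.6, 464 and 427 CPM in endothelial cells of sets 1 to 4, a nearest ratio of 10.8 (95% counting interval 8.94 to 13.1). Nr1d1, the repressor Rev-erb alpha, was at 32.5, 28.8, 230 and 190 CPM there, a ratio of 5.86. Arntl, the core activator Bmal1, lay the other way at 9.61, 9.38, 1.66 and 3.74 CPM, a ratio of 2.51. In oligodendrocytes Dbp was lower (14.4, 18.4, 46.3 and 51.0 CPM) and Arntl higher (3.46, 3.17, 1.27 and 1.51 CPM). Of 16 measured there, 3 were lower and 2 higher, where 3.46% of all genes were lower and 2.38% higher. Microglia had 4 lower of 15, where 8.27% of all genes were lower (2 of 15 with TMM scaling). T cells had 1 higher of 9, Nfil3, where 4.84% of all genes were higher, and the sides overlapped there for Dbp. Nfil3 was also higher in endothelial cells and oligodendrocytes, but lower in microglia. The labels used here give no time of day for any set.

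The 3304 kept cells that met none of the 4 rules gave the shared genes a further reading in the same libraries. Isg15 was at 135, 132, 77.7 and 50.2 CPM in them (ratio 1.70), and RT1-S3 at 235, 247, 120 and 101 CPM (ratio 1.95). Fkbp5, at 15.9, 15.03, 13.1 and 10.4 CPM, did not shift there (ratio 1.15). Ubd was at 68.1, 97.0, 11.9 and 5.81 CPM (ratio 5.74) and Mrpl43 at 2.28, 1.45, 9.99 and 10.2 CPM, lower by 4.39. Genes that were higher in 3 or 4 types, here counted also where the gene was not measured in the remaining type, numbered 36 among those measured in these cells, and 20 of them were higher and 0 lower. Of the 36 such genes that were lower in 3 or 4 types, 29 were lower and 0 higher in these cells, where 247 of all 10754 measured genes were higher and 2464 lower.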
